A study of Homo sapiens with 7 samples.

Results

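Chains of closely spaced MYCN binding sites were described in Kelly, an established cell line from a human neuroblastoma with amplification of MYCN and a mutation of the receptor kinase ALK. Of the 47765 distinct intervals in the MYCN peak list of the TAE684-sensitive cells, 46714 lay on chromosomes 1 to 22. Neighbouring intervals there were joined when the gap between them was at most 12.5 kb, and runs of 6 or more intervals were kept. This gave 800 chains with 6598 intervals, or 14.1% of the autosomal intervals (exact 95% CI 13.8 to 14.4). The chains were chosen by the positions of the intervals in the list, so all values of the same list are given here as a description and no test was run on them.

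The samples fall into 2 states of the same cell line. Resistant cells were kept in the ALK inhibitor TAE684 at 1 µM for 48 h before chromatin immunoprecipitation (ChIP), with 2 MYCN samples and 2 input samples. Sensitive cells received the vehicle DMSO for 48 h, with 2 MYCN samples and 1 input sample, input being sheared chromatin sequenced without antibody. Each state came with 1 peak list for both of its ChIP samples, and the list of the resistant cells repeated that of the sensitive cells in 64657 of 64657 rows. All 64657 peak names in the list of the resistant cells carried the name prefix of the sensitive cells, and 0 carried that of the resistant cells. MYCN binding in resistant cells was therefore not analysed here, the states were not compared, and no value has a replicate error.

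MYCN is a basic helix-loop-helix factor that pairs with MAX and prefers the E-box, of which CACGTG is the canonical form. In neuroblastoma with amplified MYCN it occupies promoters widely and also enhancers, including those of the transcription factors that hold the adrenergic, noradrenaline-producing cell state. Joining peaks over this distance is a common first step in calling super-enhancers. No histone mark or coactivator was measured in these files, so the runs are called chains here and nothing else.

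Because no gene annotation on hg19, the build of the peak list, was used, genes are named below only from their textbook map positions. The overlap of a gene with an interval was not computed. All 48 symbols used were found in the RefSeq gene table for GRCh38.p14, each on the chromosome of its chain. RefSeq promoter windows, the 250 bases before a transcript start, are shown for some of these genes to give the sequence context, with any CACGTG in capitals and all else in lower case. Their coordinates are on GRCh38.p14 and cannot be set against the hg19 positions of the chains. The first 5 hold the motif. The last 2 hold none and are shown beside a window of GATA3, since all 3 genes encode regulators of the adrenergic state. GATA3 and MIDN have further windows that are not shown, and none of these holds CACGTG. For GATA3 they include those at 8053391 to 8053640 and 8054438 to 8054687. The windows shown thus do not set GATA3 apart from HAND2 and PHOX2A.
PER1, chr17:8152405-8152654, minus strand: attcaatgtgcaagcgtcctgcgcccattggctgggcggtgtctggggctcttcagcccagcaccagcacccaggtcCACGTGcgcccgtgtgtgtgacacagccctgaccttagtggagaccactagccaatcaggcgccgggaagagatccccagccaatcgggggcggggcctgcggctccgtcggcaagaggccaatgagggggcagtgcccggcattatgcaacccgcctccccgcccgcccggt
MIDN, chr19:1249638-1249887, plus strand: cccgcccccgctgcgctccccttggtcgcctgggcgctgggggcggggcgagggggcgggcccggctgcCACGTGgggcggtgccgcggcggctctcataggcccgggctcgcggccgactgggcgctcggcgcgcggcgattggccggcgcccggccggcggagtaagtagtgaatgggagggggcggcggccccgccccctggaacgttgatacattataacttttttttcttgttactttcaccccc
GATA3, chr10:8050986-8051235, plus strand: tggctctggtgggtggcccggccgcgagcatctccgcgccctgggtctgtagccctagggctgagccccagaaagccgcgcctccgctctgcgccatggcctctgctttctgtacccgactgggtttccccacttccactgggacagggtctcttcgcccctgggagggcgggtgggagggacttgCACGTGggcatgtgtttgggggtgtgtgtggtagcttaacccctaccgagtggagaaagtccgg
HOXD13, chr2:176092471-176092720, plus strand: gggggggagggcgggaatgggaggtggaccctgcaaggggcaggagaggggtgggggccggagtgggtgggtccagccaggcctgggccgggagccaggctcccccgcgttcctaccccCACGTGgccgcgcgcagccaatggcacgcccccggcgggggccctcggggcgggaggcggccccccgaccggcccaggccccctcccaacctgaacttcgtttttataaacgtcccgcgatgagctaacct
HOXD10, chr2:176116528-176116777, plus strand: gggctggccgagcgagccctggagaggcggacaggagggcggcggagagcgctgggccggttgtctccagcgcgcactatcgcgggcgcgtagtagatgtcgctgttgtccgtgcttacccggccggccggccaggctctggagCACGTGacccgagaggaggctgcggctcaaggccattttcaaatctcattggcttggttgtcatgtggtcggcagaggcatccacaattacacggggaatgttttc
HAND2, chr4:173530230-173530479, minus strand: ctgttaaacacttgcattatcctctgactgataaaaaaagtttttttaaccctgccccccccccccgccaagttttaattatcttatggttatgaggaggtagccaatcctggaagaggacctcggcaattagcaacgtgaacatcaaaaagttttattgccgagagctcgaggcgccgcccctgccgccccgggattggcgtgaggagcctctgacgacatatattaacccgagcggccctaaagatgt
PHOX2A, chr11:72244177-72244426, minus strand: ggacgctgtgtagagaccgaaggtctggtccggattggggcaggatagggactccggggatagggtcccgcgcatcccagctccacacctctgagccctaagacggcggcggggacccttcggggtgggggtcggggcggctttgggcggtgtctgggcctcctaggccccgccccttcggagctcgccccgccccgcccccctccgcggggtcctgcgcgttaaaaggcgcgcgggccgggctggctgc
CACGTG was found in 5 of the 57 windows of the 37 named genes that had one, or 8.77%, against 6.34% of all 35116 promoter windows in the table. A window without the letters says nothing of MYCN binding elsewhere in the chain. CACGCG, a variant E-box searched on both strands, was present in 9.72% of all windows and not otherwise used.

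Most runs of MYCN intervals were short, and the chains are the far end of a steeply falling distribution. Chains of 6 or more made up 3.02% of the 26522 autosomal runs, of which 16696 were single intervals. Among the 800 chains, 289 held 6 intervals, 171 held 7, 105 held 8 and 72 held 9. Chains of 10 to 14 intervals numbered 116 and chains of 15 or more numbered 47, with 34 as the highest number.

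**Figure D1:**
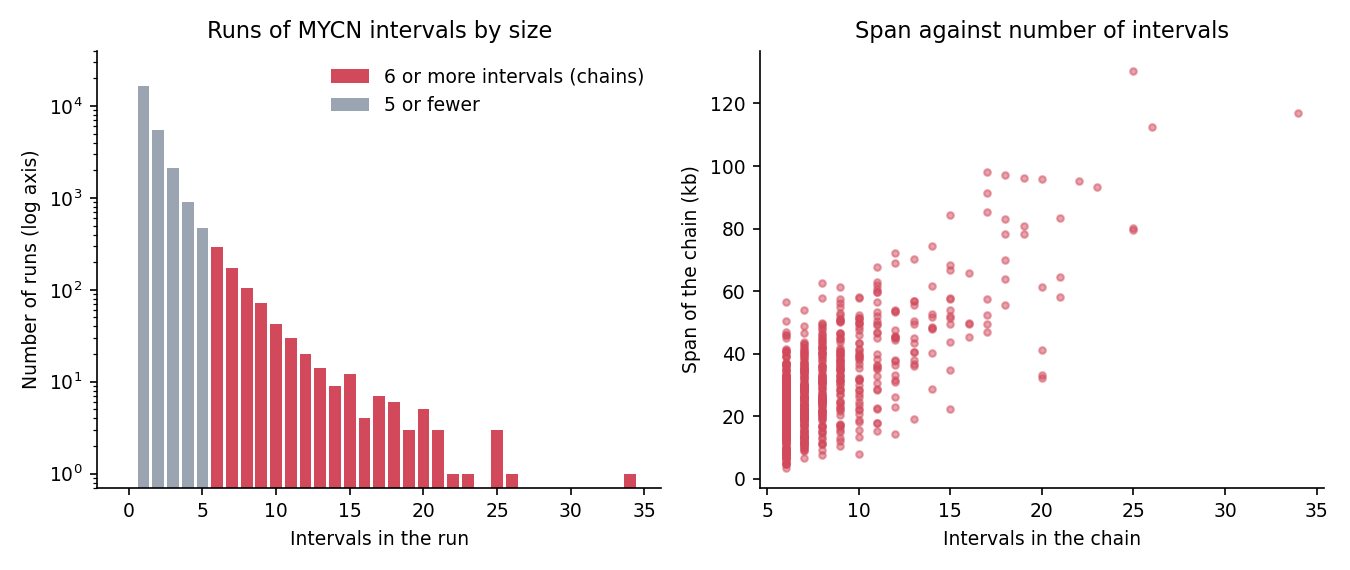
Number of runs by the number of MYCN intervals in the run, on a log axis (left, chains of 6 or more in red), and the span in kb of each of the 800 chains against its number of intervals (right, 1 point per chain). Run numbers fall from 16696 single intervals to 289 chains of 6 and 1 chain of 34, and the longest chain spans 131 kb.

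A typical chain spread 7 intervals over less than 30 kb and left most of that stretch uncovered. The span had a median of 27.6 kb, quartiles of 20.02 and 37.8 kb, and ran from 3.43 to 131 kb. Chains longer than 50 kb numbered 81, and 38 were shorter than 10 kb. Together the chains spanned 24.4 Mb, or 0.849% of the autosomes up to their last peaks, and held 2.80 Mb of MYCN intervals. The intervals covered a median of 11.1% of a chain's span, with quartiles of 7.89 and 15.96%. Chains with more intervals were longer and slightly tighter. Chains of 15 or more had a median span of 64.4 kb with 2.82 intervals per 10 kb. Chains of 6 to 9 had a median span of 25.01 kb with 2.70 per 10 kb. The median gap of a chain had a median of 2231 bp in chains of 15 or more and 2879 bp in chains of 6 to 9.

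Spacing inside the chains ranged from nearly touching intervals to gaps at the limit. The 5798 gaps had a median of 2504 bp and quartiles of 490.5 and 6378 bp. Gaps of up to 500 bp made up 25.3%, and gaps of over 5000 bp and up to 10000 bp made up 24.8%. Of the 6598 intervals, 2583, or 39.1%, had a neighbour no more than 500 bp away. Whether such neighbours are parts of 1 enriched stretch was not tested. When intervals under 500 bp apart were merged first, there were 471 chains of 6 or more.

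**Figure D2:**
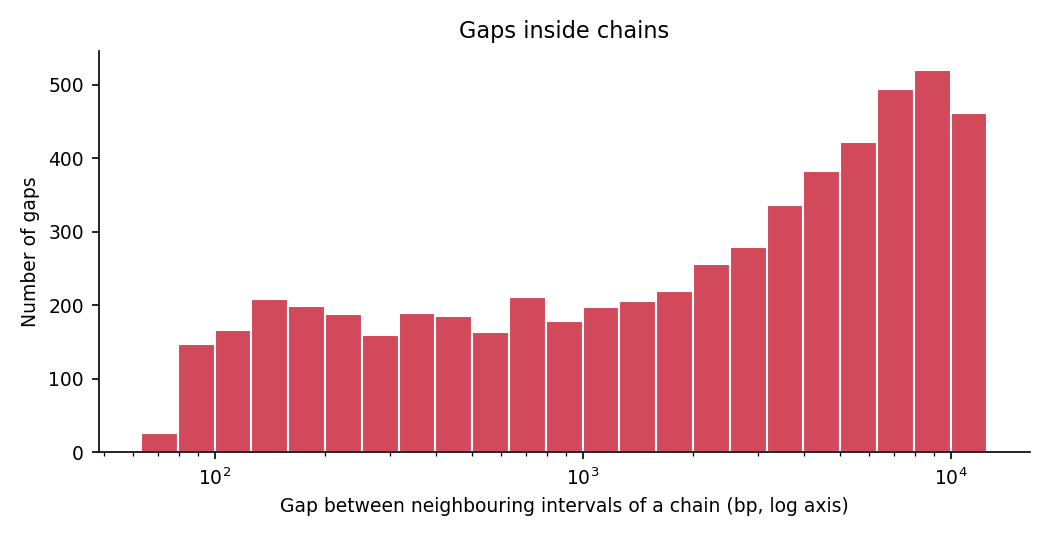
Number of gaps between neighbouring intervals of the same chain by gap length in bp, on a log axis, for the 5798 gaps of the 800 chains. Gaps run from 76 to 12497 bp, with a broad shoulder under 1000 bp and most gaps between 2000 bp and the limit of 12.5 kb.

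The thresholds cut a continuous distribution. Chains of 6 intervals had a median span of 22.5 kb, a median fold enrichment of 5.13 and a median highest fold of 9.52, against 17.5 kb, 5.21 and 9.52 for the 471 runs of 5. On the autosomes 1918 gaps measured over 10 kb and up to the limit, and 1660 measured over the limit and up to 15 kb. On the inner side the 3 largest gaps equalled the limit, and on the outer side the nearest gaps were 12502, 12504 and 12506 bp. For 596 of the 800 chains (74.5%, exact 95% CI 71.3 to 77.5) the next interval on at least 1 side lay within 25 kb, and 49 chains had more than 50 kb free on both sides.

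Intervals in chains had a lower fold enrichment over input than the other autosomal intervals, but more ChIP fragments and a higher input background. The fold enrichment is the authors' value for a summit, the point of highest signal, and the strongest summit stands for its interval. Its median was 5.14 in chains and 5.86 in the 40116 intervals of runs of 5 or fewer. The order turned when only intervals with a fold of at least 5 were chained, with 7.47 in chains and 7.39 elsewhere. A fold of at least 10 was reached by 11.03% of the intervals in chains (exact 95% CI 10.3 to 11.8) and by 15.6% of the others (15.2 to 15.9).

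Fragment numbers, recovered from the fold and p-value of each summit, ran the opposite way. The median was 74 ChIP fragments in chains and 61 elsewhere, and at least 100 fragments lay over 32.8% of the intervals in chains and 26.98% of the others. For the local background the medians were 8.96 input fragments in chains and 6.30 elsewhere. A background at the genome-wide level of 1.61 was found at 1.24% of the intervals in chains (exact 95% CI 0.990 to 1.54) and at 10.0% of the others (9.75 to 10.3). The fold is the ratio of the scaled fragment number to this background, with a constant added to both, so the 3 measures are not independent.

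These medians also differed among the runs below the chain threshold. The median background was 5.18 input fragments for single intervals, 6.72 in pairs and 7.14 in runs of 3 to 5, then 8.82 in chains of 6 to 9, 8.68 in chains of 10 to 14 and 9 in chains of 15 or more. The median fold was 6.24 for single intervals, 5.80 in pairs and 5.41 in runs of 3 to 5, then 5.12, 5.12 and 5.21 in the chain classes from small to large. The median ChIP fragment number was 56 for single intervals, 61 in pairs and 64 in runs of 3 to 5, then 73, 75 and 78 in the same chain classes. Median fold and background thus differed little among the chain classes. The median fragment number was slightly higher in each larger class, but the classes overlapped widely. Its quartiles were 49 and 115.5 at 6 to 9 intervals, and 52 and 123 at 15 or more.

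**Figure D3:**
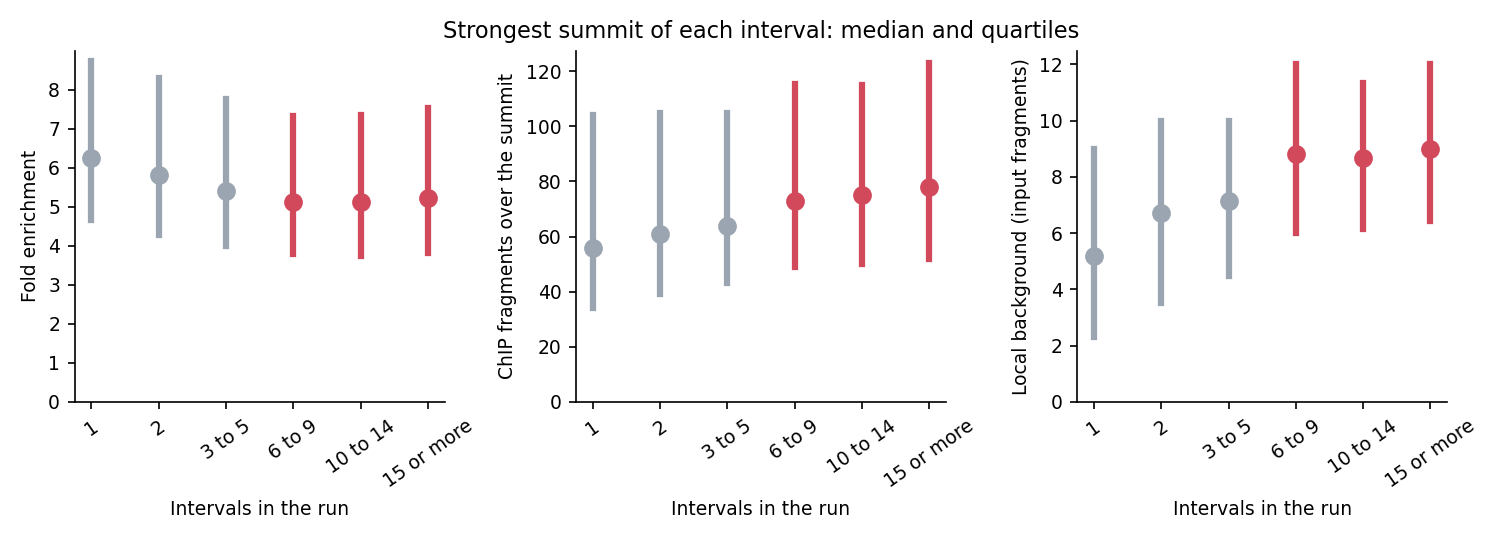
Fold enrichment, ChIP fragments over the summit and local background in input fragments for the strongest summit of each autosomal interval, by the number of intervals in its run (dots, medians; bars, quartiles; chains of 6 or more in red). The median fold lies between 5.12 and 5.21 in the chain classes, against 6.24 for single intervals, and the median background between 8.68 and 9, against 5.18.

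At a like background, the order of fragment numbers depended on the level. At the genome-wide background the median was 27 ChIP fragments in chains and 26 elsewhere, and at higher values up to 4 input fragments it was 38 in chains and 36 elsewhere. Over 4 and up to 8 input fragments it was 58 in both sets, over 8 and up to 12 it was 85 in chains and 95 elsewhere, and above 12 it was 116 in chains and 130 elsewhere. Chains thus had slightly more fragments where background was low and fewer where it was high. The fold was higher in chains only at the genome-wide background, 7.03 against 6.78 elsewhere, and lower in the other 4 bands, for example 4.99 in chains and 5.62 elsewhere over 8 and up to 12. Intervals with a background above 12 made up 21.02% of those in chains and 11.9% of the others.

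The differences also appeared within chromosomes. The median background was higher in chains than in the other intervals on 21 of 22 autosomes and equal on chromosome 6. The median fold was lower in chains on 21 of 22, the exception being chromosome 19 with 5.34 in chains and 5.26 elsewhere. The median ChIP fragment number was higher in chains on 20 of 22, with 39 in chains and 44 elsewhere on chromosome 18 and 52 in each on chromosome 4. The interval width had a median of 307 bp in chains and 273 bp elsewhere, and 75.6% of the intervals in chains and 76.7% of the others had a single summit.

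Strength varied widely within a chain. The strongest interval of a chain had a median fold of 10.6 (quartiles 8.49 and 13.6) and the weakest a median of 2.99. The ratio of strongest to weakest had a median of 3.49, ran from 1.37 to 14.7, and was 5 or more in 135 chains. At least 1 interval with a fold of 10 or more was present in 447 chains, of which 256 had exactly 1 such interval and 61 had 3 or more. No chain had a fold of 10 or more in every interval, and 18 chains had at least 5 in every interval. A larger chain has more chances for a strong interval, and the share of chains with a fold of at least 10 was 51.6% at 6 to 9 intervals, 67.2% at 10 to 14 and 85.1% at 15 or more.

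The strongest interval had no fixed place in the chain. It was the first or last interval in 213 of 800 chains, or 26.6% (exact 95% CI 23.6 to 29.8), while first and last intervals made up a mean of 26.7% of a chain's intervals. The median fold was 5.31 in first and last intervals and 5.09 in inner ones, with 75 and 74 ChIP fragments.

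The largest chain lay on chromosome 17 from 8013648 to 8130454, a gene-dense stretch that by map position holds PER1, a core circadian clock repressor, VAMP2, a synaptic vesicle SNARE protein, and AURKB, a mitotic kinase. It held 34 intervals and 52 summits over 117 kb, with a median fold of 6.76. Fold ran from 2.77 to 15.3, and 7 intervals reached 10. These 7 were spread along the chain, at summits 8023675, 8025078, 8042359, 8054598, 8055870, 8113897 and 8124261. The PER1 promoter shown above has its CACGTG 173 bases before the transcript start. A further clock gene, NR1D1, which encodes a heme-binding nuclear receptor, lies by map position at a chain on chromosome 17 from 38255195 to 38278943. Its 6 intervals had folds of 14, 16.3, 3.76, 6.46, 21.8 and 5.81, so 3 of 6 were strong and the other 3 were not. The chain at NR1D1 was named after its values were seen.

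Other chains with many intervals covered regions of several genes at moderate strength. On chromosome 1, 25 intervals from 839741 to 919825 lay at SAMD11 and NOC2L, the second a nucleolar-associated repressor of transcription. Their background was high, with a median of 14.1 input fragments, and the median fold was 4.87. On chromosome 16, 25 intervals from 88503742 to 88583413 lay at ZFPM1, which encodes FOG1, a cofactor of GATA factors, with a median fold of 4.07 and a highest fold of 11.02. On chromosome 19, 22 intervals from 1236626 to 1331836 lay at MIDN, CIRBP, a cold-inducible RNA-binding protein, and EFNA2, an ephrin ligand, with a median fold of 5.08 and a highest of 11.9. On chromosome 11, 21 intervals from 776708 to 859944 lay at RPLP2, a ribosomal stalk protein, and CD151, a tetraspanin, where 5 intervals reached a fold of 10 and the highest was 17.7.

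A few large chains are given by position only. One held 26 intervals at 85478712 to 85591315 of chromosome 16, with a highest fold of 9.34 and so no interval at 10. Another held 25 at 42665456 to 42795969 of chromosome 22, the longest span of all at 131 kb, with a highest fold of 12.3. The third held 21 at 180586350 to 180650725 of chromosome 5, with a median fold of 6.71 and a highest of 16.98. Of the 5 longest chains, the remaining 2 spanned 98.1 kb at 184347438 to 184445563 of chromosome 3, with 17 intervals, and 97.3 kb at 88794135 to 88891422 of chromosome 16, with 18.

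Chains lay at several genes of the adrenergic transcription factor circuit, which was looked for after the chains were seen. Genes of the circuit without a chain were not counted, so no share is given. HAND2, a basic helix-loop-helix factor of sympathetic neurons, lies at a chain of 20 intervals on chromosome 4 from 174427074 to 174460122. Its strongest summit, at 174458157, reached a fold of 17.5 with 82 ChIP fragments over a background of only 2.06 input fragments, and the other 19 intervals had folds of 2.46 to 9.75. By fragment number a different interval led, with 145 fragments and a fold of 7.23 at summit 174438250. This chain stood alone, with 134 and 109 kb free on its sides. HAND1, the paralogue of HAND2, lies at a chain of 12 intervals on chromosome 5 from 153841250 to 153867351, with a highest fold of 9.18.

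GATA2, a zinc-finger factor of the same circuit, lies at a chain of 20 intervals and 41 summits on chromosome 3 from 128175768 to 128216969. No interval reached a fold of 10, the highest values being 9.94 and 9.73, and these carried 231 and 226 ChIP fragments over a background of 14 input fragments each. The chain was among the better covered, with intervals over 34.5% of its 41.2 kb. GATA3, which drives noradrenergic differentiation, lies at a chain of 11 intervals on chromosome 10 from 8087009 to 8102405. Folds of 11.8, 10.9 and 14.8 were found at summits 8093865, 8095598 and 8096440, within 3 kb of each other, and the remaining 8 intervals had folds of 2.67 to 6.91.

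**Figure D4:**
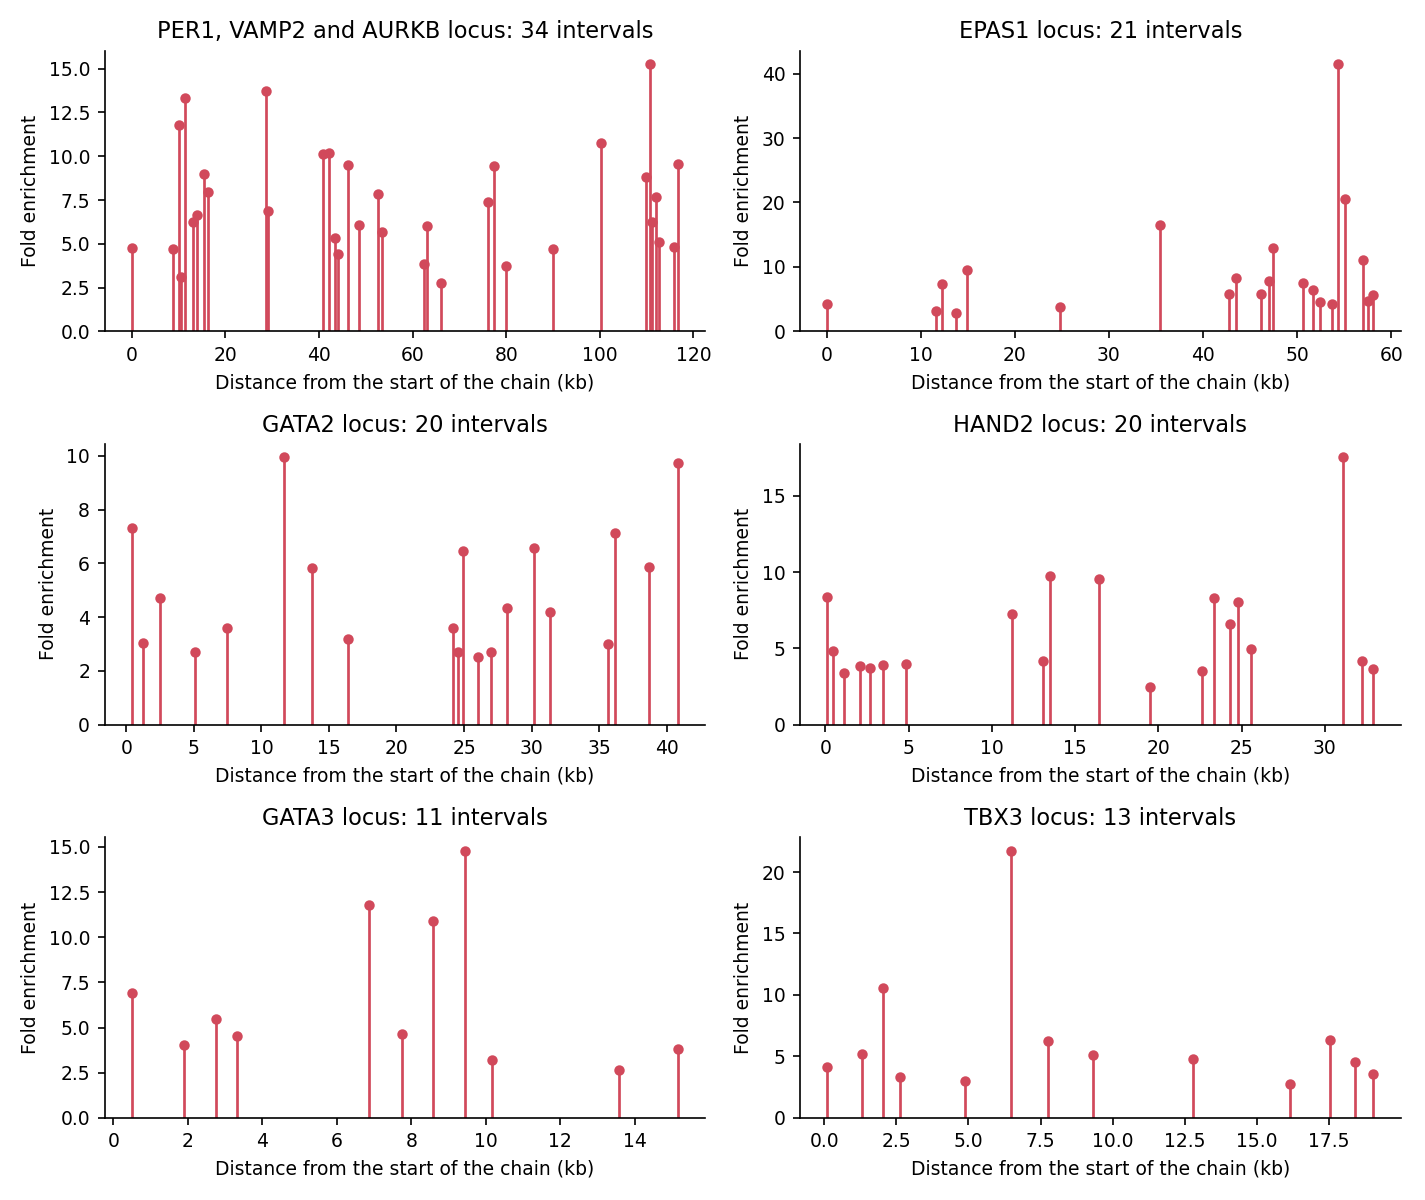
Fold enrichment of each interval at its strongest summit against distance in kb from the start of the chain, for 6 chains named by the map position of a gene (1 stem per interval, vertical scales differ between panels). The EPAS1 chain has 1 summit at 41.5 near its end, the TBX3 chain 2 of 13 intervals above 10, and the GATA2 chain none above 10.

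Chains also lay at further factors of neural crest and sympathetic cells, likewise named after their values were seen. PHOX2A, a homeobox factor of noradrenergic neurons, lies at 9 intervals on chromosome 11 from 71934200 to 71956376, all with folds of 2.25 to 7.88. TFAP2B, an AP-2 factor of sympathetic progenitors, lies at 11 intervals on chromosome 6 from 50785167 to 50802946. Its highest fold of 14.4 rested on 57 ChIP fragments at the genome-wide background. At the T-box genes TBX2 and TBX3, chains of 13 intervals each reached folds of 9.91 on chromosome 17 and 21.7 on chromosome 12. The intervals at TBX2 carried more ChIP fragments, a median of 147 against 65 at TBX3. Their input background was also higher, a median of 15 against 7, and the median folds were 5.26 and 4.82. MEIS2, a TALE homeobox factor, lies at 10 intervals on chromosome 15 with folds of 4.40 to 11.8, and MEIS1 at 10 on chromosome 2 with folds of 3.05 to 6.84.

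Chains at some genes of catecholamine cells, and at a few other genes, are given next. All but the chain of TH and IGF2 were named after their values were seen. Genes without a chain were not counted. TH, the rate-limiting enzyme of catecholamine synthesis, and IGF2, an imprinted growth factor, share a chain of 23 intervals on chromosome 11 from 2130845 to 2223994, with a median fold of 5.62. Its strongest summit, at 2212289, had a fold of 14.4 with 201 ChIP fragments, and 3 intervals reached 10. DBH, which converts dopamine to noradrenaline, lies at 9 intervals on chromosome 9 from 136490660 to 136508273. One of them had a fold of 18.3 and the other 8 had folds of 2.91 to 7.40. CHGA, the secretory granule protein chromogranin A, lies at 16 intervals on chromosome 14 from 93373169 to 93418626, of which 3 reached 10 and the highest was 18.3. RET, a receptor tyrosine kinase of the neural crest, lies at 7 intervals on chromosome 10 with a highest fold of 10.95. CCND1, the cyclin D1 of G1 progression, lies at 9 intervals in 15.5 kb on chromosome 11 from 69444885 to 69460404. The strongest had a fold of 17.2 with 266 ChIP fragments. HIC1, a zinc-finger repressor, lies at a longer chain of 20 intervals on chromosome 17 from 1927144 to 1988538, where the highest fold was 10.3.

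Some homeobox and histone gene clusters, also named after their values were seen, gave chains of different strength. Part of the HOXD cluster, with HOXD13, HOXD10 and HOXD9, lies at 15 intervals and 28 summits on chromosome 2 from 176944058 to 177001646. Its 3 strongest had folds of 14.5, 11.3 and 17.6. Part of the HOXC cluster, with HOXC10, HOXC9 and HOXC8, lies at 16 intervals on chromosome 12 from 54378687 to 54428104, where the highest fold was 7.10. A histone gene stretch with H2BC13, H3C10 and H4C11 lies at 20 intervals on chromosome 6 from 27774649 to 27806874. These were closely set, with a median gap of 244 bp, and 1 of 20 reached a fold of 10, at 19.7.

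The highest fold in any chain was at EPAS1, which encodes the hypoxia-inducible factor HIF-2 alpha. Its chain of 21 intervals ran over 58.2 kb on chromosome 2 from 46512181 to 46570367. The summit at 46566540 had a fold of 41.5 with 198 ChIP fragments over 2.09 input fragments, while the most ChIP fragments at an interval of any chain were 279, and the next interval, 93 bp further, had a fold of 20.6 with 223 fragments. In contrast, the first interval of the chain had a fold of 4.18 with 18 fragments. Intervals crowded toward the high-coordinate end, with 12 of 21 at or beyond summit 46558359.

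The 4 next highest folds in chains lay between 28.7 and 31.6. At SRRM4, a neural splicing regulator on chromosome 12, the summit at 119510467 had a fold of 31.6 with 127 ChIP fragments, and the other 5 intervals had folds of 5.18 to 7.82. At MALAT1, an abundant nuclear noncoding RNA on chromosome 11, the summit at 65266496 reached 31.5 and the summit at 65265069 had 15.3 with the most fragments of the chain, 261. The chain on chromosome 11 from 1963455 to 2021194 has H19, an imprinted noncoding RNA, at its high-coordinate end by map position. Its summit of 31.2 lay near the other end, at 1968527, and 6 of 15 intervals reached 10, while the last interval, at 2021119, had a fold of 4.58. At PA2G4, an ERBB3-binding growth regulator, and RPL41, a ribosomal protein, on chromosome 12, summits 56510571 and 56513358 had folds of 25.1 and 28.7.

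Of the 5 densest chains, 4 packed 6 intervals into less than 5 kb. The tightest was on chromosome 12 from 49625776 to 49629201, with 17.5 intervals per 10 kb and a highest fold of 9.45. SPRY2, a feedback inhibitor of receptor tyrosine kinase signalling, lies at 6 intervals on chromosome 13 from 80912989 to 80917530. Their folds were 5.34, 2.92, 3.04, 10.6, 6.48 and 9.16, so the 3 last were the 3 strongest within a span of 4.54 kb, and the nearest intervals outside were 206 and 154 kb away. IER5L on chromosome 9 and TRERF1, a zinc-finger regulator of transcription on chromosome 6, had chains of 4.55 kb each with highest folds of 8.84 and 11.1. The chain with the most complete coverage, 84.1% of 6.12 kb, lay on chromosome 2 from 60776400 to 60782524 at BCL11A, a zinc-finger repressor.

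The chains of highest and lowest median fold were small, with 6 to 8 intervals each. The highest median fold, 12.1, belonged to 6 intervals on chromosome 19 from 39339803 to 39360901, with folds of 11.3, 3.46, 15.6, 22.8, 6.75 and 12.9 a median of 196.5 ChIP fragments and a median background of 8.55 input fragments. The next medians were 11.02 at 240033492 to 240061753 of chromosome 1, 10.97 at 98926464 to 98949521 of chromosome 13, 10.8 at 72018598 to 72046027 of chromosome 11 and 10.7 at 162847937 to 162860295 of chromosome 1. The background medians there were 2.64, 2.17, 5 and 2.67 input fragments, in the same order. The lowest medians were 2.85 at 126679081 to 126705175 of chromosome 3, 2.99 at 57194391 to 57210174 of chromosome 20 and 3.002 at 45064152 to 45098476 of chromosome 22. Their background medians were 13.7, 10.5 and 11.7.

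Chains were unevenly placed among the chromosomes. Chromosome 19 had 1.35 chains per Mb up to its last peak and chromosome 17 had 0.998, followed by chromosomes 16 with 0.499 and 22 with 0.488. Chromosome 18 had 3 chains, chromosome 21 had 5 and chromosome 13 had 8. The share of a chromosome's intervals that lay in chains was 27.95% for chromosome 19, 24.7% for chromosome 17, 22.5% for chromosome 16 and 2.88% for chromosome 18. Chromosomes 1, 17 and 19 together held 32.6% of the chains and 22.4% of the autosomal intervals. The density of all intervals moved with these numbers and ran from 40.9 intervals per Mb on chromosome 19 to 8.34 on chromosome 13. Its part in the number of chains was not tested, and no correction for gains or losses of chromosome segments was made.

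**Figure D5:**
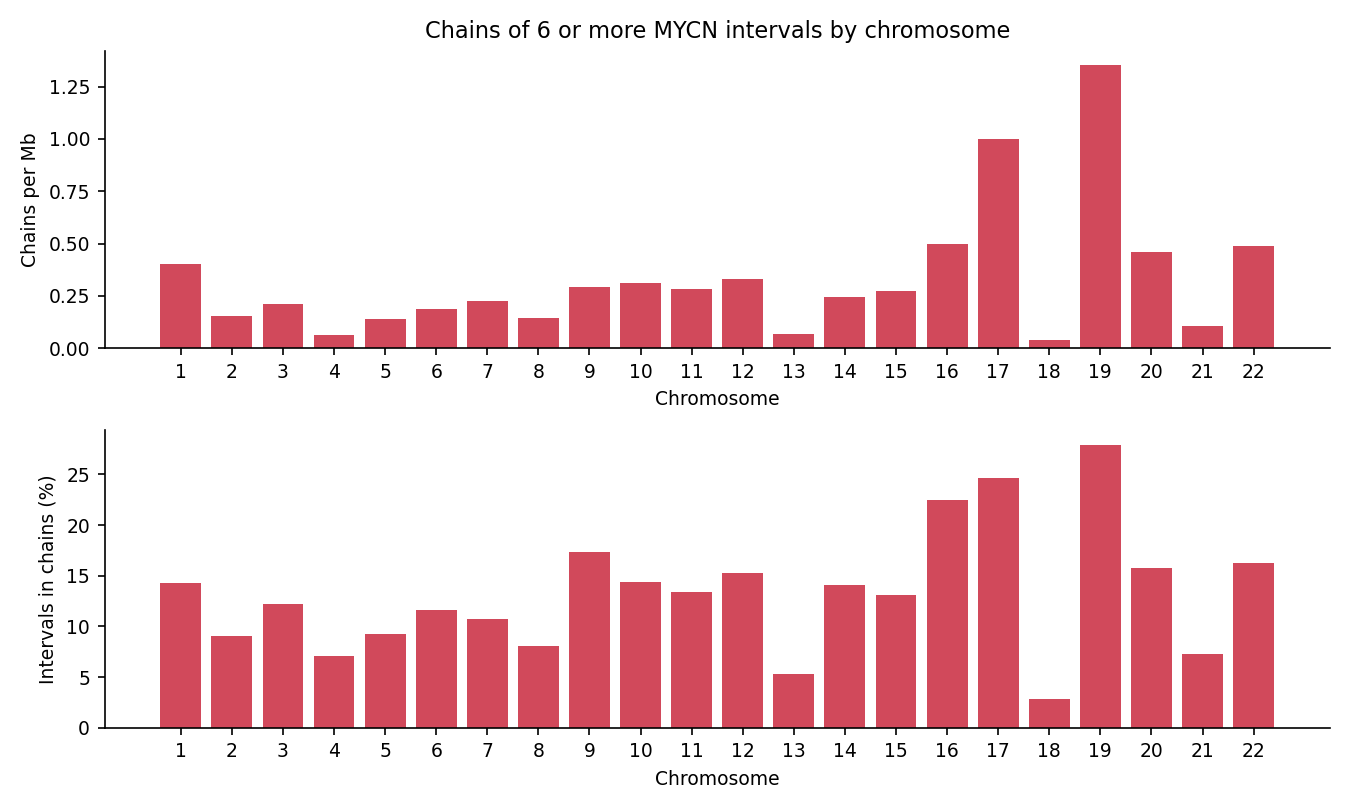
Chains of 6 or more MYCN intervals per Mb up to the last peak (top) and the percentage of each autosome's intervals that lie in chains (bottom), 1 bar per chromosome. Chromosome 19 is highest in both, with 1.35 chains per Mb and 27.95% of intervals, and chromosome 18 lowest, with 0.0385 and 2.88%.

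Some chains lay close to each other, and the part of the uneven density of all intervals in this was not tested. The nearest other chain lay a median of 211 kb away, with quartiles of 49.7 and 901 kb, and 291 chains, or 36.4%, had another within 100 kb. The densest bin of 1 Mb, on chromosome 17 at 79 to 80 Mb, held 10 chains with 94 intervals. Bins at 1 to 2 Mb of chromosome 19, 85 to 86 Mb of chromosome 16, 139 to 140 Mb of chromosome 9 and 50 to 51 Mb of chromosome 3 held 7 each. Joining chains up to 50 kb apart gave as the largest group 7 chains with 79 intervals over 512 kb on chromosome 16 from 85148637 to 85660567. Within 5 Mb of the first or last interval of a chromosome lay 24.8% of the chains and 14.9% of all autosomal intervals. The highest background in any chain interval was 29 input fragments. More than 30 were found at 25 of the 40116 intervals outside chains and at 0 of the 6598 in chains. Whether the 2 sets differ in this was not tested.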

How the data were processed

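MYCN ChIP-seq peak lists of sensitive and resistant Kelly cells were used as deposited. Per the submitters' processing notes, the tools were MACS2 2.1.1 (a peak caller), STAR 2.5.1b, Picard, SAMtools 1.3.1 and deepTools 2.2.4, on the build hg19. Their roles and settings, and how the ChIP samples of a state were combined into 1 list, are not stated there. A row is 1 summit. The authors deposited its fold enrichment (ratio of scaled ChIP pileup to local background, with a constant added to both). They also deposited its −log10 p-value and q-value, and an integer score that was not used. These describe peaks within the list only. Rows with the same start and end were collapsed to 1 interval, represented by its summit of highest fold. Positions are counted from 1.

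ChIP fragments and local background were solved from fold and p-value with MACS2's relations at a scale of 0.641. In these, the fragment number is multiplied by the scale, and 1 is added to it and to the background before the fold is taken. Fragment numbers are given unscaled, so dividing them by the background does not return the fold. A whole fragment number matched −log10 p within 0.0005 at 64657 of 64657 summits, more than 1 number at 24. On simulated summits with scales of 0.6, 0.73 and 0.88 the exact number came back at 2866 of 2866, 2822 of 2822 and 2665 of 2665. Fragment numbers ran from 13 to 280 per summit, and the library totals were not used. How duplicate reads were handled is not stated. Whether the highest fragment numbers, and the folds that rest on them, lie near a limit set by that handling was not tested. Binomial intervals are exact, at 95%, and reflect counting error alone, because neighbouring intervals, and reads that carry no molecular identifiers, are not independent.

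Chains named by rule were the 10 with most intervals, the 5 longest, the 5 densest, the 5 with the highest summit, the 5 of highest and the 3 of lowest median fold, 29 in all. A further 20 were named after their values were seen. Some of these results are not reported here. Members, lists and genes were chosen with earlier results of these data known. Gene starts, gene lists and E-boxes in intervals were not computed, since no hg19 annotation or sequence was used. The tools were scipy 1.17.1, pandas 2.3.3, numpy 2.4.6 and matplotlib 3.10.9 in Python 3.11.15.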

Additional observations from a re-analysis of the deposited data

How the results depend on the processing

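No paired analysis was possible because the ChIP samples of a state came as a single list, which also kept any replicate from being left out. The number of chains, 800, was 228 with gaps of at most 5 kb, 444 with 8 kb and 1269 with 20 kb. It was 1271 for runs of 5 or more and 340 for 8 or more, 301 with a −log10 q of at least 10, 150 with a fold of at least 5 and 471 with intervals under 500 bp apart merged. It was 615 when the −log10 q had to reach 5, and 810 when chromosome X was added. The share of autosomal intervals in chains, 14.1%, was 3.53%, 7.26% and 25.8% for the 3 gaps in the same order, 19.2% and 7.85% for 5 and 8 or more, 11.7% and 7.40% where the −log10 q had to reach 5 and 10, 3.76% with a fold of at least 5 and 9.03% after merging.

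The median span, 27.6 kb, was 11.1, 18 and 46.8 kb for the 3 gaps, 22.9 and 37.8 kb for 5 and 8 or more, 29.97 kb where the −log10 q had to reach 10 and 35.1 kb after merging. The median fold in chains, 5.14, was 5.49 and 6.37 where the −log10 q had to reach 5 and 10, 7.47 with a fold of at least 5, 5.42 after merging, 4.82 over all summits and 4.81 for intervals with 1 summit. The median background in chains, 8.96, was 9.80 with a −log10 q of at least 10, 7.91 with a fold of at least 5, 8.54 with gaps of at most 20 kb, 8.40 for 5 or more and 8.26 for intervals with 1 summit. The cause of these shifts was not tested beyond what each setting removes or joins. Background and ChIP fragments had higher medians in chains than elsewhere under each gap, q, fold, merging and single-summit setting, and the fold had a lower one in each but the fold threshold. Alternatives on gene starts and E-boxes were not run, since no hg19 annotation or sequence was used.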
